A study of Mus musculus with 24 samples.

Results

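Acly, Acaca, Fasn, Elovl6, Elovl5, Scd1, Fads1, Fads2, Acsl3 and Me1 encode enzymes of fatty acid synthesis, elongation, desaturation and activation, and they are described here in naive mouse CD4+ T cells before and after activation. The 10 genes were picked by name for their place in the pathway, with earlier results of these data known. Counts of calls among them are therefore descriptive and no independent support. Each gene was read from the brightest of its probe sets on the array, by the mean over all 24 arrays. They are 10 of the 17097 genes that the arrays could name, and their other probe sets served as a check. The cells were sorted as CD4+CD62LhiCD44loCD25- lymphocytes out of spleen and peripheral lymph nodes. They came from wild-type C57BL/6 mice or from CD4(cre)Raptor(fl/fl) mice, for which the labels give no strain. In the latter the Cd4 promoter drives Cre in the T cell lineage and the floxed gene encodes Raptor; the labels name no Cre in the wild-type group. Each genotype was studied unstimulated and after 8 h and 24 h of plate-bound anti-CD3 and anti-CD28 stimulation, with 4 arrays in each of the 6 groups. The labels do not say whether replicates of a group are different animals, and a p-value here therefore measures the spread between these samples, which may be technical.

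Fatty acid synthesis starts from citrate, which ATP citrate lyase (Acly) splits to give cytosolic acetyl-CoA. Acetyl-CoA carboxylase (Acaca) turns this into malonyl-CoA, and fatty acid synthase (Fasn) builds palmitate from both with NADPH, some of it from malic enzyme (Me1). Elongases (Elovl6, Elovl5) lengthen the chains, desaturases (Scd1, Fads1, Fads2) add double bonds, and acyl-CoA synthetases such as Acsl3 activate fatty acids for use in membranes. Transcription of these genes is known to be driven by the SREBP factors, often together with NF-Y and Sp1, and mTOR complex 1, of which Raptor is a subunit, is known to promote SREBP activity in growing cells. Activated T cells need new membrane as they enlarge and divide.

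The promoter sequences of the genes whose levels changed together are shown so that a reader can set them beside the time courses. They are the 250 bases before the start of transcription from RefSeq, build GRCm38.p6, written in the direction of the gene, and 8 of the 10 genes matched an entry (all but Scd1 and Fads1). An entry marks 1 annotated start, and a gene can have others: Me1 had 2 windows. Which start these cells use was not tested, so a window, such as that of Acaca, may not be the promoter in use. Fasn at chr11:120824548-120824797 (minus strand), Acaca at chr11:84195188-84195437 (plus strand) and Acsl3 at chr1:78657575-78657824 (plus strand) belong to the genes that rose early. Elovl6 at chr3:129532136-129532385 (plus strand) and Fads2 at chr19:10101504-10101753 (minus strand) belong to those that rose late. Capitals mark the letters of the motifs searched on both strands.
Fasn: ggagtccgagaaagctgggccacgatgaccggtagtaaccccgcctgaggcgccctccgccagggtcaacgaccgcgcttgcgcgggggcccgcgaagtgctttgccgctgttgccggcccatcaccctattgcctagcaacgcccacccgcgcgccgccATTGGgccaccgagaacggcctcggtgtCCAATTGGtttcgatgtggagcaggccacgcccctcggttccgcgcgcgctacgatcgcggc
Acaca: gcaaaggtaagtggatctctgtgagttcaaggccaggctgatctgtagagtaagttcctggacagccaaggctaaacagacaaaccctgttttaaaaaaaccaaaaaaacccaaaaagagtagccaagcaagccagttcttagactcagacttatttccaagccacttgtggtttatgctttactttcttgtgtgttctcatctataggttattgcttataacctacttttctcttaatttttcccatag
Acsl3: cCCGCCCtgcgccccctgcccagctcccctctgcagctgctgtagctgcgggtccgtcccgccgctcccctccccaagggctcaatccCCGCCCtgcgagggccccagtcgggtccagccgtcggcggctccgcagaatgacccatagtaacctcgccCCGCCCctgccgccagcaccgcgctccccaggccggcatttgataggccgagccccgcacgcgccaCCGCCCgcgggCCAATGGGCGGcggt
Elovl6: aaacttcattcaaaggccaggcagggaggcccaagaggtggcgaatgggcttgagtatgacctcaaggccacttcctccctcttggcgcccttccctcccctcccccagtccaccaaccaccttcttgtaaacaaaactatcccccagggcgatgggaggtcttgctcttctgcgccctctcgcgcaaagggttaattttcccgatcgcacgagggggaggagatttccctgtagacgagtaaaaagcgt
Fads2: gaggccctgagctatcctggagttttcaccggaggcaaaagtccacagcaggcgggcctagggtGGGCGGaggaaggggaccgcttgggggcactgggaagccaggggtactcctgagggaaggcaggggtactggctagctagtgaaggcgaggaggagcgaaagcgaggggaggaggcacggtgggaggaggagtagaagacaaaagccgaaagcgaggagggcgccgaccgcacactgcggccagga
The NF-Y box CCAAT was in the windows of 4 of the 8 genes (Fasn, Elovl5, Acsl3 and Me1) and in 33.8% of 32851 promoter windows of the same length. In Fasn it occurred 3 times, and a pair of those matches, on opposite strands, overlapped in the run CCAATTGG. The GC box GGGCGG, an Sp1 motif, was found in 4 genes (Acly, Fads2, Acsl3 and Me1) and in 32.7% of all windows. In Acsl3 it occurred 5 times, and the last of these directly followed the CCAAT. The E-box CACGTG was in Elovl5 alone and in 6.02% of all windows. The sterol response element written TCACNCCAC was in 0 of the 8 and in 1.05% of all windows, which says only that these letters were not in this stretch. A gene was counted where any of its windows held the motif, while the shares of all windows are per window. Me1 held its CCAAT and its GC boxes in different windows. A match describes the letters and shows no binding.

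The arrays carried the marks of CD4+ T cells, and a few of them stood apart. All 8 measured CD4 T cell markers had means that reached 5.22, the median over every value, in each of the 6 groups, and the arrays' medians ran from 5.15 to 5.29. Rptor, which encodes Raptor, was at 7.28 ± 0.20, 7.51 ± 0.04 and 7.08 ± 0.13 in unstimulated, 8 h and 24 h wild-type cells (log2 intensity, SD, n = 4). In Raptor-deficient cells it was at 6.66 ± 0.60, 6.49 ± 0.22 and 6.45 ± 0.15, and the adjusted p of the difference was 0.075, 0.000292 and 0.0109 (limma, two-sided, Benjamini-Hochberg over all genes). Unstimulated Raptor-deficient replicates 1 to 4 had Rptor at 5.92, 7.37, 6.55 and 6.79. Replicate 2 thus lay within the range of the unstimulated wild-type values of Rptor, 7.04 to 7.49. Its probes were not placed against the deleted exon, so this residual signal is no measure of the deletion. In the unstimulated Raptor-deficient group, the residual SD over all genes was 0.28, 0.222 and 0.206 in replicates 1, 2 and 3, against 0.119 to 0.172 on the other 21 arrays. At 24 h, replicate 1 of each genotype held RNA of liver genes: Alb, the albumin gene, was at 9.02 (wild-type) and 9.11 (Raptor-deficient), and the other 24 h arrays lay between 6.22 and 6.42. Precision is limited by how few arrays each group has.

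In wild-type cells the genes followed 2 main courses. Fasn, Acaca and Acsl3 had risen by 8 h, 3.88-fold, 3.92-fold and 2.54-fold, and stayed high at 24 h. Scd1, Elovl6, Fads1 and Fads2 did not pass the test at 8 h and rose between 8 h and 24 h, Scd1 by 7.26-fold in measured intensity. No detection calls were used here, so whether Scd1 before 24 h, or Me1 at any time, lay above the array's background is not known, and a fold from a level at background would be a lower bound. Raptor-deficient cells started from levels that passed no test of a difference. They had lower Acly, Acaca, Fasn and Acsl3 at 8 h and lower levels of every gene but Me1 at 24 h, with the largest difference in Scd1 (3.22-fold). The panels of log2 intensity by group show each course array by array.

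**Figure D1:**
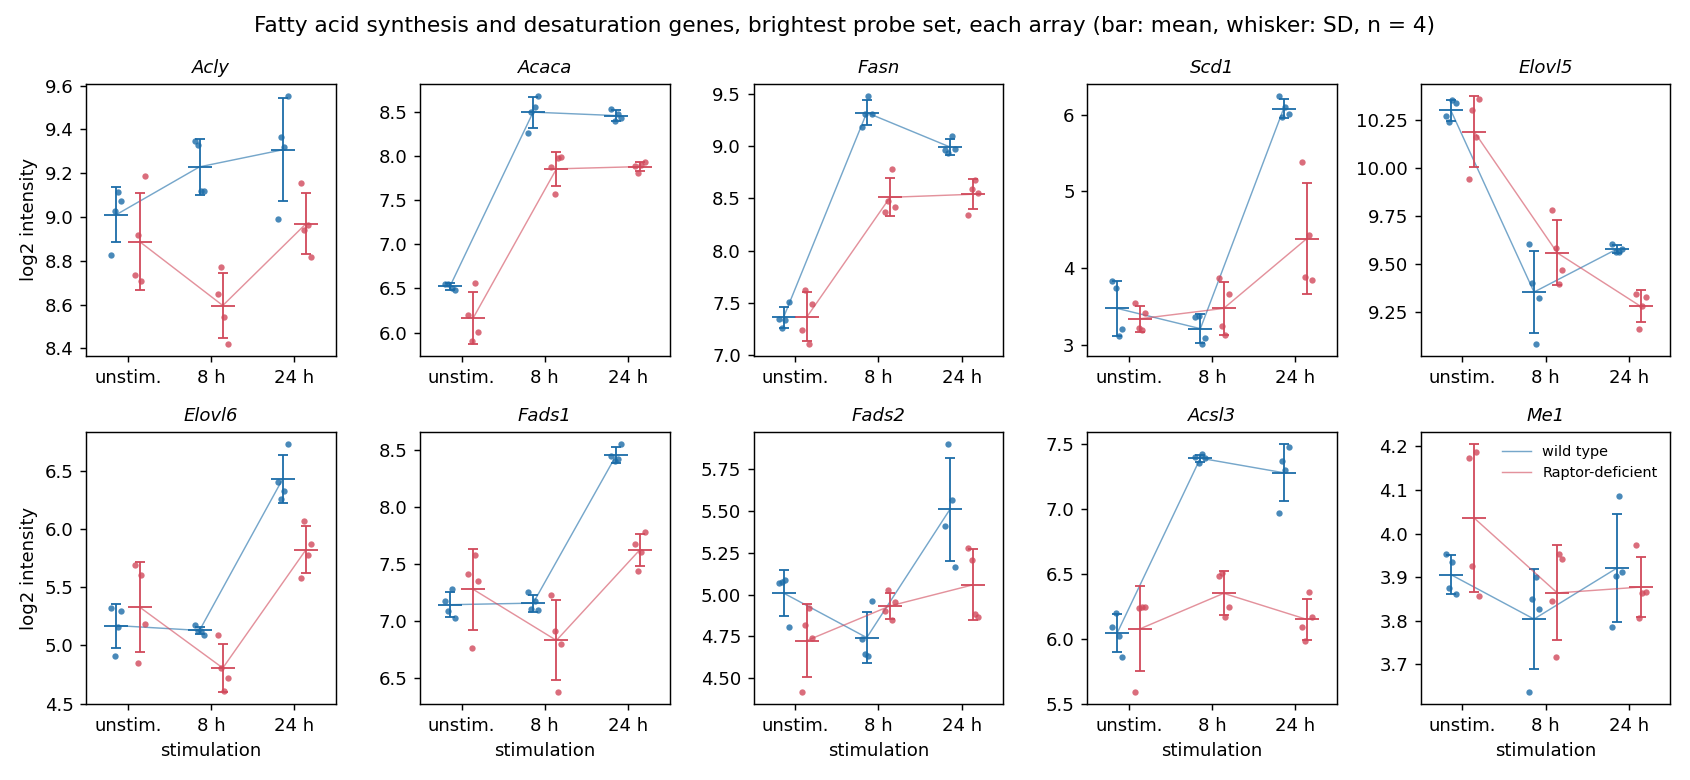
Log2 intensity of the 10 genes (vertical axes, each with its own range, not starting at 0) in unstimulated cells and after 8 h and 24 h of stimulation, for wild-type (blue) and Raptor-deficient cells (red). Points are single arrays, bars the means and whiskers the SD (n = 4). Wild-type Fasn went from 7.36 to 9.32 by 8 h, and wild-type Scd1 from 3.22 at 8 h to 6.08 at 24 h.

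A gene was called where its two-sided limma p, adjusted by the Benjamini-Hochberg method over all 17097 genes of a comparison, was under 0.05. From unstimulated to 8 h in wild-type cells, 3 of the 10 were called higher (Fasn, Acaca and Acsl3) and 1 lower (Elovl5), where 18.9% of all genes were called higher and 20.8% lower. From 8 h to 24 h, 4 were higher (Scd1, Elovl6, Fads1 and Fads2) and 1 was lower (Fasn), against 17.4% and 11% of all genes. Over the whole course from unstimulated to 24 h, 8 were higher and 1, Elovl5, was lower, against 25.4% and 24.3%. The median of the 10 changes over the whole course was 1.24 on the log2 scale, beside -0.03 for all genes. With each array centred on its median, 5145 genes were higher and 3065 lower over the whole course, in place of 4348 and 4148, and cyclic loess gave 5156 and 3174. Up to 8 h the median of the 10 was -0.01 beside -0.03, with 6 of the 10 not called at that time.

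In Raptor-deficient cells, 2 of the 10 were higher at 8 h than unstimulated (Acaca and Fasn) and 3 were lower (Elovl5, Elovl6 and Fads1), against 16% and 16.8% of all genes. Between 8 h and 24 h, 4 were higher (Acly, Scd1, Elovl6 and Fads1) and 0 lower, against 15.2% and 7.81%. From unstimulated to 24 h, 5 were higher (Acaca, Fasn, Scd1, Elovl6 and Fads2) and 1, Elovl5, was lower, against 21.6% and 17.5%. The Fads2 rise is that of its brightest probe set. On its second probe set, Raptor-deficient values ran from 4.41 to 4.80 unstimulated and from 4.38 to 4.78 at 24 h. The median change of the 10 over that whole course was 0.34, beside -0.01 for all genes. Both genotypes' changes are set side by side in the plot of the 2 intervals.

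**Figure D2:**
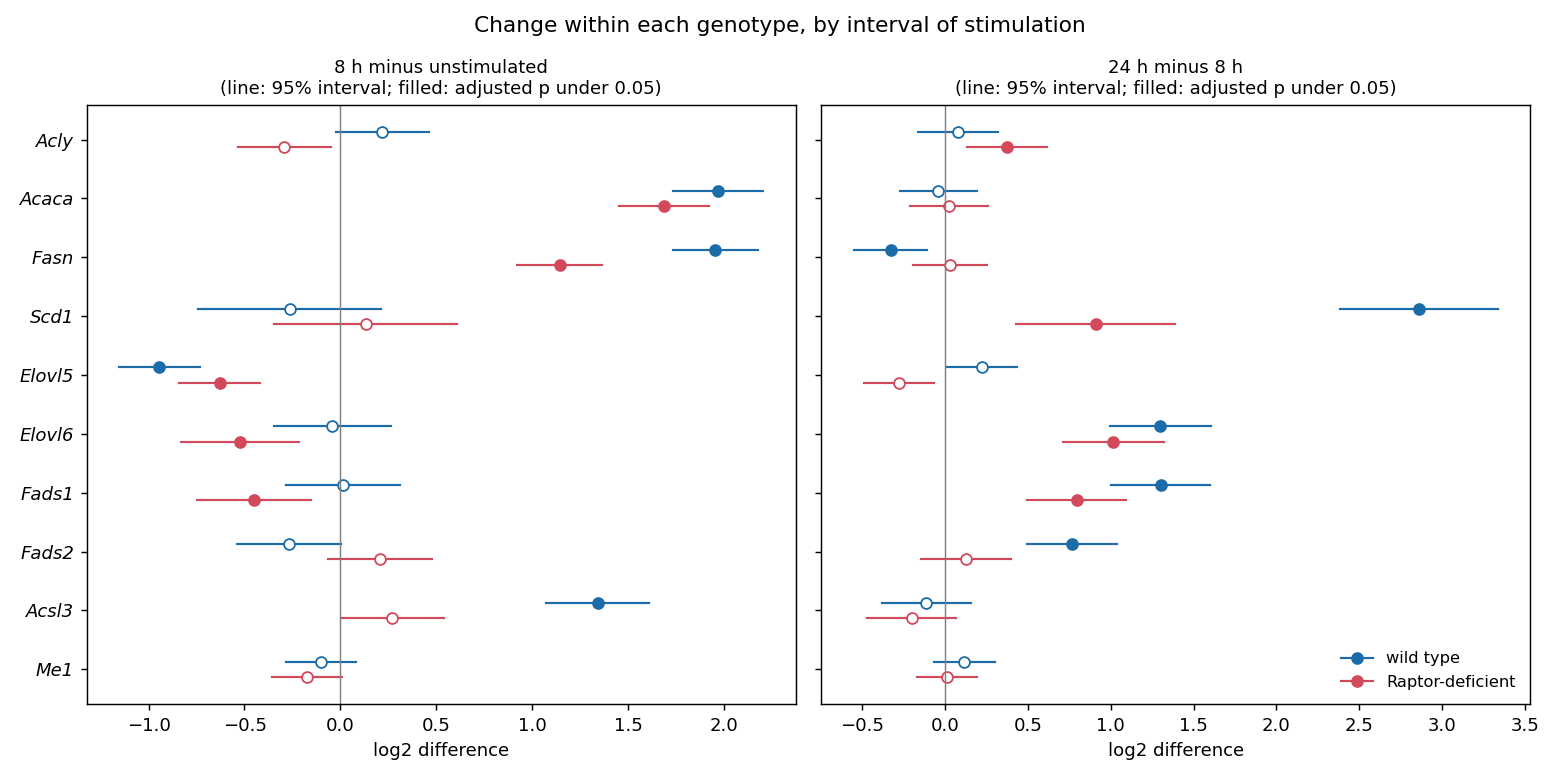
Difference in log2 intensity (horizontal axis) from unstimulated to 8 h (left) and from 8 h to 24 h (right) for the 10 genes in wild-type (blue) and Raptor-deficient cells (red). Points are limma estimates, lines 95% intervals, and filled points have an adjusted p under 0.05. In the first interval Acsl3 differed by 1.34 (wild-type) and 0.27 (Raptor-deficient, open point), and in the second Scd1 by 2.86 and 0.91.

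Between genotypes, unstimulated cells had 0 of the 10 called in either direction, where 0.702% of all genes were called higher and 1.24% lower in Raptor-deficient cells. The 2 with an unadjusted limma p under 0.05 were Acaca (-0.36, adjusted p = 0.115) and Fads2 (-0.28, adjusted p = 0.327). At 8 h, 4 of the 10 were lower in Raptor-deficient cells and 0 higher, against 8.77% and 4.14% of all genes. At 24 h, 9 were lower and 0 higher, against 13.1% and 8.35%. The median difference of the 10 was -0.05 unstimulated, -0.32 at 8 h and -0.51 at 24 h, and that of all genes was -0.01, 0.01 and 0.01. With each array centred on its median, 513 genes were higher and 1849 lower at 8 h, in place of 707 and 1500. At 24 h 1013 were higher and 2696 lower, in place of 1428 and 2243, while 4 (8 h) and 9 (24 h) of the 10 were again lower. Quantile normalization gave 4 and 7 of the 10 lower, the mean of all probe sets 5 and 8, and cyclic loess 4 and 9. Without replicate 1 of both 24 h groups, 8 were lower at 24 h. In samples of many cells, fewer cells that express a gene and less RNA per cell cannot be told apart.

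**Figure D3:**
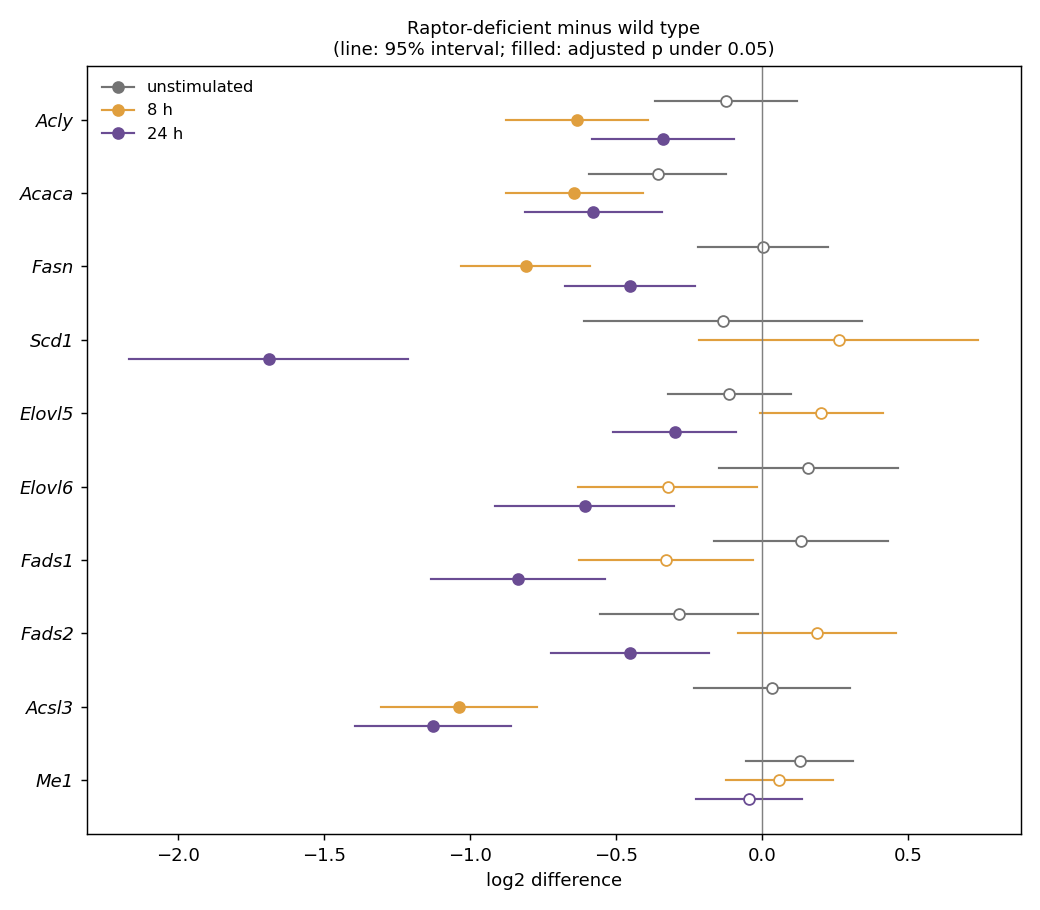
Difference in log2 intensity between Raptor-deficient and wild-type cells (horizontal axis, negative where Raptor-deficient cells were lower) for the 10 genes, unstimulated (grey), at 8 h (orange) and at 24 h (purple). Points are limma estimates, lines 95% intervals, and filled points have an adjusted p under 0.05. Differences at 24 h ran from -0.04 for Me1 to -1.69 for Scd1.

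Some markers of other cells also differed between the genotypes, beside the shares of all genes given above. Of 9 measured B cell markers, 3 were higher in Raptor-deficient cells at 24 h (Pax5 by 1.37, H2-Aa by 0.71 and Cd79a by 0.64) and 1, H2-Aa, at 8 h. Their summed level ran from 8.42 to 8.98 in the 24 h Raptor-deficient samples and from 7.89 to 8.13 in the wild-type ones (log2 of the summed intensities). At 8 h it ran from 8.32 to 8.71 and from 8.03 to 8.14. Of 8 myeloid markers, 2 were higher at 8 h (S100a8 by 1.02 and S100a9 by 0.84) and 2 at 24 h (Lyz2 by 0.40 and Fcer1g by 0.29), and S100a9 was already higher unstimulated, by 0.88. Their sum unstimulated ran from 7.85 to 8.30 in Raptor-deficient and from 7.57 to 7.75 in wild-type cells, and at 8 h it ran from 7.98 to 8.34 against 7.55 to 7.67. The fat cell markers, 5 of them measured, had summed levels of 6.99 to 7.11 in Raptor-deficient and 6.76 to 6.90 in wild-type cells at 24 h, with Retn higher by 0.39, and Lep was higher by 0.39 at 8 h. Of 7 CD8 T and NK cell markers, Klrd1 was lower unstimulated (-1.65, adjusted p = 1.25e-05), 0 were called at 8 h, and Nkg7 was higher at 24 h (0.69, adjusted p = 0.00189). Among the 8 CD4 T cell markers, Lef1 was higher by 0.48 at 24 h, Cd4 differed by -0.37 unstimulated and -0.36 at 8 h, Thy1 was lower by 0.70 on the log2 scale at 8 h and by 0.39 at 24 h, and the list's median difference was -0.26 at 8 h and 0.09 at 24 h. These markers summed to between 12.9 and 13.1 at 8 h in Raptor-deficient cells and between 13.1 and 13.3 in wild-type cells. The part of these other cells in the results was not tested.

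The tests of whether stimulation changed a gene by a different amount in the 2 genotypes used the interaction term, the Raptor-deficient change minus the wild-type change. From unstimulated to 8 h it was called for 2 of the 10, both negative (Fasn and Acsl3), and 0 were positive, against 4.36% negative and 1.94% positive among all genes. From 8 h to 24 h it was negative for 3 (Scd1, Elovl5 and Fads2) and positive for 0, against 3.2% and 1.33%. Over the whole course it was negative for 5 (Fasn, Scd1, Elovl6, Fads1 and Acsl3) and positive for 0, against 8.01% and 5.26%. With arrays centred on their medians, 225 genes were positive and 1053 negative up to 8 h, in place of 331 and 745 (quantile normalization gave 441 and 604), and 587 and 1750 over the whole course, in place of 900 and 1370. The medians of the 10 interaction values were -0.37, -0.19 and -0.34 in that order, beside 0.02, 0.01 and 0.02 for all genes.

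Acly, which makes the acetyl-CoA for the pathway, moved little in wild-type cells. It was at 8.83, 9.03, 9.11 and 9.07 unstimulated, at 9.35, 9.33, 9.12 and 9.12 at 8 h, and at 8.99, 9.37, 9.32 and 9.55 at 24 h. In Raptor-deficient cells it was at 8.74, 8.92, 8.71 and 9.19, then at 8.65, 8.77, 8.54 and 8.42, then at 9.16, 8.94, 8.96 and 8.82. All 4 Raptor-deficient values at 8 h lay below all 4 wild-type ones, whereas at 24 h the groups overlapped. The difference between genotypes was -0.63 at 8 h (SE 0.12, adjusted p = 0.000495) and -0.34 at 24 h (SE 0.12, adjusted p = 0.0416). Wild-type Acly was 1.23-fold higher at 24 h than unstimulated (adjusted p = 0.0393), and Raptor-deficient Acly rose 1.30-fold from 8 h to 24 h (adjusted p = 0.0213). The 24 h difference lost its call without any 1 of 6 samples (adjusted p up to 0.171), namely replicate 2, 3 or 4 of either genotype. Without replicate 1 of both 24 h groups, the arrays with liver transcripts, it was -0.51 (adjusted p = 0.00508). In that fit the wild-type rise from unstimulated was 0.40 (adjusted p = 0.00524) and the Raptor-deficient rise from 8 h was 0.31 (adjusted p = 0.0591). The wild-type rise lost its call without any 1 of 5 samples (24 h replicates 2, 3 and 4 and unstimulated replicates 1 and 2, adjusted p up to 0.163). The Raptor-deficient rise did so without any 1 of 3 (24 h replicate 1 and 8 h replicates 3 and 4, adjusted p up to 0.0869). The interaction up to 8 h was -0.51 (adjusted p = 0.0683). The second Acly probe set gave a wild-type rise of 0.47 by 8 h (adjusted p = 0.000506 over all probe sets), which passed the test where the brightest had not, and its interaction up to 8 h was -0.75 (adjusted p = 0.0027). On it the genotypes did not overlap at 24 h, with Raptor-deficient values from 8.07 to 8.27 and wild-type values from 8.51 to 8.62.

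Acaca, the carboxylase that commits acetyl-CoA to fatty acid synthesis, rose in both genotypes and was lower without Raptor. Wild-type cells had 6.55, 6.55, 6.51 and 6.48 unstimulated, 8.25, 8.49, 8.55 and 8.68 at 8 h, and 8.53, 8.39, 8.47 and 8.43 at 24 h. Raptor-deficient cells had 6.19, 5.90, 6.56 and 6.00, then 7.88, 7.57, 7.97 and 7.99, then 7.89, 7.80, 7.89 and 7.93. The genotypes did not overlap at 8 h or at 24 h, and unstimulated only 1 of the 4 Raptor-deficient values reached the wild-type ones. The difference between genotypes was -0.64 at 8 h (SE 0.11, adjusted p = 0.000302) and -0.58 at 24 h (SE 0.11, adjusted p = 0.000455). The rise by 8 h was 1.97 in wild-type cells and 1.69 in those without Raptor, and the interaction of -0.29 was not called (adjusted p = 0.35, 95% interval -0.62 to 0.05). The second probe set, nearly as bright, rose by 1.51 and 0.73, with an interaction of -0.79 (adjusted p = 0.00166 over all probe sets), so the probe sets differed on whether the rise was smaller. Without replicates 2 and 3 of the unstimulated Raptor-deficient group, the brightest probe set gave a lower Acaca in unstimulated cells, by 0.42 on the log2 scale (adjusted p = 0.0352). Without replicate 3 alone it was lower by 0.49 (adjusted p = 0.00671). The second probe set differed by 0.07 there on all samples (adjusted p = 0.843 over all probe sets). Without replicate 1, the array farthest from its group over all genes, the difference on the brightest probe set was -0.37 (adjusted p = 0.157).

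Fasn, the synthase, showed a clear early rise that was smaller without Raptor. Wild-type cells had 7.34, 7.26, 7.34 and 7.51 unstimulated, 9.18, 9.31, 9.48 and 9.30 at 8 h, and 8.96, 8.93, 9.10 and 8.97 at 24 h. Raptor-deficient cells had 7.24, 7.63, 7.11 and 7.49, then 8.37, 8.47, 8.78 and 8.42, then 8.34, 8.59, 8.67 and 8.55. The unstimulated groups overlapped throughout, and after stimulation every wild-type value lay above every Raptor-deficient one. The rise by 8 h was 1.96 (SE 0.11, adjusted p = 4.56e-14) in wild-type cells and 1.14 (SE 0.11, adjusted p = 2.59e-09) in those without Raptor, and the interaction was -0.81 (SE 0.15, adjusted p = 0.00174). Wild-type Fasn then fell by 0.33 on the log2 scale from 8 h to 24 h (adjusted p = 0.0226), and Raptor-deficient Fasn differed by 0.03 (adjusted p = 0.9). That fall was not called without wild-type replicate 2 at 24 h (adjusted p = 0.0589) or replicate 3 at 8 h (adjusted p = 0.0864). Raptor-deficient cells differed from wild-type by -0.81 at 8 h (SE 0.11, adjusted p = 9.71e-06), and by 24 h this had become -0.45 (SE 0.11, adjusted p = 0.00292). Over the whole course the interaction was -0.46 (adjusted p = 0.0481), and without replicate 1 of both 24 h groups it was -0.40 (adjusted p = 0.134). Leaving out any 1 of 16 of the 24 samples also ended that call, with adjusted p up to 0.116. Fasn had 1 probe set, so no other could be set beside it.

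Elovl6, which elongates palmitate, belonged to the late genes on its brightest probe set. Wild-type cells had 5.32, 4.91, 5.15 and 5.29 unstimulated, 5.17, 5.12, 5.12 and 5.09 at 8 h, and 6.40, 6.26, 6.33 and 6.73 at 24 h. Raptor-deficient cells had 5.69, 4.85, 5.60 and 5.18, then 5.09, 4.80, 4.61 and 4.72, then 5.57, 6.07, 5.78 and 5.87. All 24 h wild-type values lay above all others of the gene. Elovl6 rose by 1.30 (SE 0.15, adjusted p = 1.19e-07) in wild-type and by 1.02 (SE 0.15, adjusted p = 8.91e-06) in Raptor-deficient cells from 8 h to 24 h, and in the latter it had first fallen by 0.52 on the log2 scale (adjusted p = 0.00694). The difference between genotypes was -0.32 at 8 h (adjusted p = 0.178) and -0.61 at 24 h (SE 0.15, adjusted p = 0.00363). The interaction over the whole course was -0.77 (adjusted p = 0.015), and it was -0.69 without replicate 1 of both 24 h groups (adjusted p = 0.0541). The Raptor-deficient rise from unstimulated to 24 h, 0.49, was 0.33 without unstimulated replicate 2 (adjusted p = 0.0614).

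The probe sets of Elovl6 differed in time and size. The second one, slightly dimmer than the brightest, was at 5.02, 5.40, 5.25 and 5.56 in wild-type cells at 8 h and at 4.03, 4.82, 4.30 and 4.20 in Raptor-deficient cells. It had risen by 0.69 in wild-type cells by 8 h (adjusted p = 0.00158 over all probe sets), and the genotypes differed by -0.97 at 8 h (adjusted p = 0.000308) and by -1.25 at 24 h (adjusted p = 4.16e-06). On the brightest the wild-type value at 8 h differed from the unstimulated one by -0.04 (adjusted p = 0.866). The third, at a mean of 4.33, rose by 0.45 in wild-type cells and 0.57 in those without Raptor from 8 h to 24 h, with a difference between genotypes of -0.22 at 24 h (adjusted p = 0.252). The early fall of Raptor-deficient cells given above is that of the brightest probe set. On the second their values ran from 4.50 to 4.95 unstimulated and from 4.03 to 4.82 at 8 h. On the third they ran from 3.94 to 4.26 and from 3.67 to 4.22.

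Elovl5, which elongates polyunsaturated chains, was the gene that fell in both genotypes. Wild-type cells had 10.27, 10.24, 10.35 and 10.33 unstimulated, 9.61, 9.40, 9.09 and 9.32 at 8 h, and 9.61, 9.56, 9.56 and 9.58 at 24 h. Raptor-deficient cells had 9.94, 10.30, 10.16 and 10.35, then 9.78, 9.58, 9.40 and 9.47, then 9.35, 9.16, 9.28 and 9.33. Every stimulated value lay below every unstimulated value, and at 24 h the genotypes no longer overlapped. By 8 h it had fallen by 0.94 on the log2 scale (SE 0.10, adjusted p = 1.6e-08) in wild-type and by 0.63 (SE 0.10, adjusted p = 1.57e-05) in Raptor-deficient cells. Between 8 h and 24 h the change was 0.22 (adjusted p = 0.11) and -0.28 (adjusted p = 0.0512), and the interaction was -0.50 (SE 0.14, adjusted p = 0.0436). The difference between genotypes at 24 h was -0.30 (SE 0.10, adjusted p = 0.0374). Without replicate 1 of both 24 h groups these last 2 were -0.51 (adjusted p = 0.0894) and -0.31 (adjusted p = 0.09). On the second probe set the 24 h difference was -0.32 (adjusted p = 0.39). There Raptor-deficient cells had 8.60, 8.35, 8.35 and 8.47 at 24 h and wild-type cells 8.80, 8.74, 8.70 and 8.81, without overlap. The fit shares its spread over all 6 groups, and on this probe set unstimulated Raptor-deficient replicate 1 was at 10.87, with replicates 2 to 4 between 9.13 and 9.27. On the brightest probe set, leaving out any 1 of 17 samples ended the call of the interaction (adjusted p up to 0.115). Leaving out any 1 of 7 of the 8 samples at 24 h, all but Raptor-deficient replicate 1, ended that of the 24 h difference (adjusted p up to 0.119).

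Scd1, the desaturase that makes monounsaturated fatty acids, had the largest change of the 10 and, at 24 h, the largest difference between genotypes, each on the brightest probe sets. Wild-type cells had 3.83, 3.75, 3.12 and 3.22 unstimulated and 3.37, 3.38, 3.02 and 3.09 at 8 h, and 6.24, 5.97, 6.09 and 6.01 at 24 h. Raptor-deficient cells had 3.55, 3.22, 3.19 and 3.42, then 3.87, 3.25, 3.13 and 3.67, then 5.39, 3.88, 4.43 and 3.85. The 24 h wild-type values stood above all others, and in the 24 h Raptor-deficient group replicate 1, the array with liver transcripts, stood above the other 3. Scd1 rose by 2.86 (SE 0.23, adjusted p = 2.14e-10) in wild-type and by 0.91 (SE 0.23, adjusted p = 0.00442) in Raptor-deficient cells from 8 h to 24 h, and the interaction was -1.95 (SE 0.33, adjusted p = 0.000214). At 24 h Raptor-deficient cells were lower by 1.69 on the log2 scale (SE 0.23, 3.22-fold, adjusted p = 3.91e-06).

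Liver itself expresses Scd1 strongly, so the values without replicate 1 of both 24 h groups stand beside these. Without them the Scd1 difference between genotypes at 24 h was -1.97 (3.91-fold, adjusted p = 5.88e-08), and the rises from 8 h were 2.81 in wild-type cells and 0.57 in those without Raptor (adjusted p = 0.0261). The 11 liver markers summed to 10.6 in the wild-type and 10.7 in the Raptor-deficient replicate 1, and the lowest 24 h array of each group was at 8.41. The second Scd1 probe set gave a 24 h difference of -1.77 and an interaction of -2.16 from 8 h to 24 h (adjusted p = 5.86e-07 and 1.71e-05 over all probe sets).

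Fads1, a desaturase of polyunsaturated fatty acids, took the late course. Wild-type cells had 7.17, 7.08, 7.28 and 7.03 unstimulated, 7.25, 7.11, 7.17 and 7.09 at 8 h, and 8.45, 8.40, 8.42 and 8.55 at 24 h. Raptor-deficient cells had 7.41, 6.76, 7.58 and 7.35, then 7.23, 6.91, 6.38 and 6.80, then 7.67, 7.43, 7.61 and 7.78. The 24 h groups were far apart, with all 4 wild-type values above 8 and all 4 Raptor-deficient values below it. From 8 h to 24 h Fads1 rose by 1.30 (SE 0.14, adjusted p = 6.77e-08) in wild-type and by 0.79 (SE 0.14, adjusted p = 0.000144) in Raptor-deficient cells, with an interaction of -0.51 (adjusted p = 0.209, not called). Raptor-deficient cells had first fallen by 0.45 on the log2 scale up to 8 h (adjusted p = 0.0167), which was not called without replicate 3 at 8 h (adjusted p = 0.112) or unstimulated replicate 3 (adjusted p = 0.0778), and over the whole course the interaction was -0.97 (adjusted p = 0.00173). The difference at 24 h was -0.83 (SE 0.14, adjusted p = 9.48e-05). On the second, dimmer Fads1 probe set it was -0.24 (adjusted p = 0.173 over all probe sets), and the rise from 8 h to 24 h was 0.51 in each genotype (interaction adjusted p = 0.997). The whole-course interaction of -0.97 is that of the brightest probe set. On the second, the 24 h values overlapped the unstimulated ones in each genotype. Wild-type values there ran from 5.82 to 6.13 unstimulated and from 6.04 to 6.30 at 24 h. Raptor-deficient values ran from 5.66 to 6.09 and from 5.91 to 6.04.

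Fads2, the first desaturase of the polyunsaturated route, changed less on its brightest probe set than on the others. On the brightest, wild-type cells had 5.07, 5.08, 5.09 and 4.80 unstimulated, 4.74, 4.64, 4.63 and 4.96 at 8 h, and 5.41, 5.90, 5.57 and 5.16 at 24 h. Raptor-deficient cells had 4.42, 4.82, 4.92 and 4.74, then 4.90, 5.03, 4.85 and 4.96, then 5.28, 5.20, 4.89 and 4.87. The 24 h groups overlapped, with the lowest wild-type value below the 2 highest Raptor-deficient ones. The rise from 8 h to 24 h was 0.77 (SE 0.13, adjusted p = 5.14e-05) in wild-type cells and 0.13 (adjusted p = 0.573) in those without Raptor, the interaction was -0.64 (SE 0.19, adjusted p = 0.0461), and the difference at 24 h was -0.45 (SE 0.13, adjusted p = 0.014). The 24 h difference was -0.32 without wild-type replicate 2 (adjusted p = 0.0858), and it was not called either without Raptor-deficient replicate 3 (adjusted p = 0.0521) or 4 (adjusted p = 0.0602). The interaction, and the Raptor-deficient rise of 0.33 from unstimulated to 24 h, each lost the call without any 1 of 16 samples (adjusted p up to 0.126 and 0.184). Over the whole course the limma interaction on the brightest probe set was -0.17 (adjusted p = 0.657).

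On the second Fads2 probe set, slightly dimmer over all arrays, wild-type cells had 5.86, 6.08, 6.65 and 6.37 at 24 h and Raptor-deficient cells 4.60, 4.78, 4.66 and 4.38. No 24 h Raptor-deficient value exceeded the highest unstimulated one of that genotype, 4.80. Unstimulated wild-type values there ran from 4.33 to 4.60, below all the wild-type values at 24 h. The rise from 8 h to 24 h was 1.67 in wild-type (adjusted p = 1.02e-10 over all probe sets) and 0.08 in Raptor-deficient cells (adjusted p = 0.719), and the interaction was -1.59 (adjusted p = 6.59e-07). The 24 h difference between genotypes was -1.64 (adjusted p = 2.86e-10), and on the third, dim probe set it was -1.13 (adjusted p = 5.93e-09). The panels of the probe sets of Fads2 and Elovl6 show these values.

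**Figure D4:**
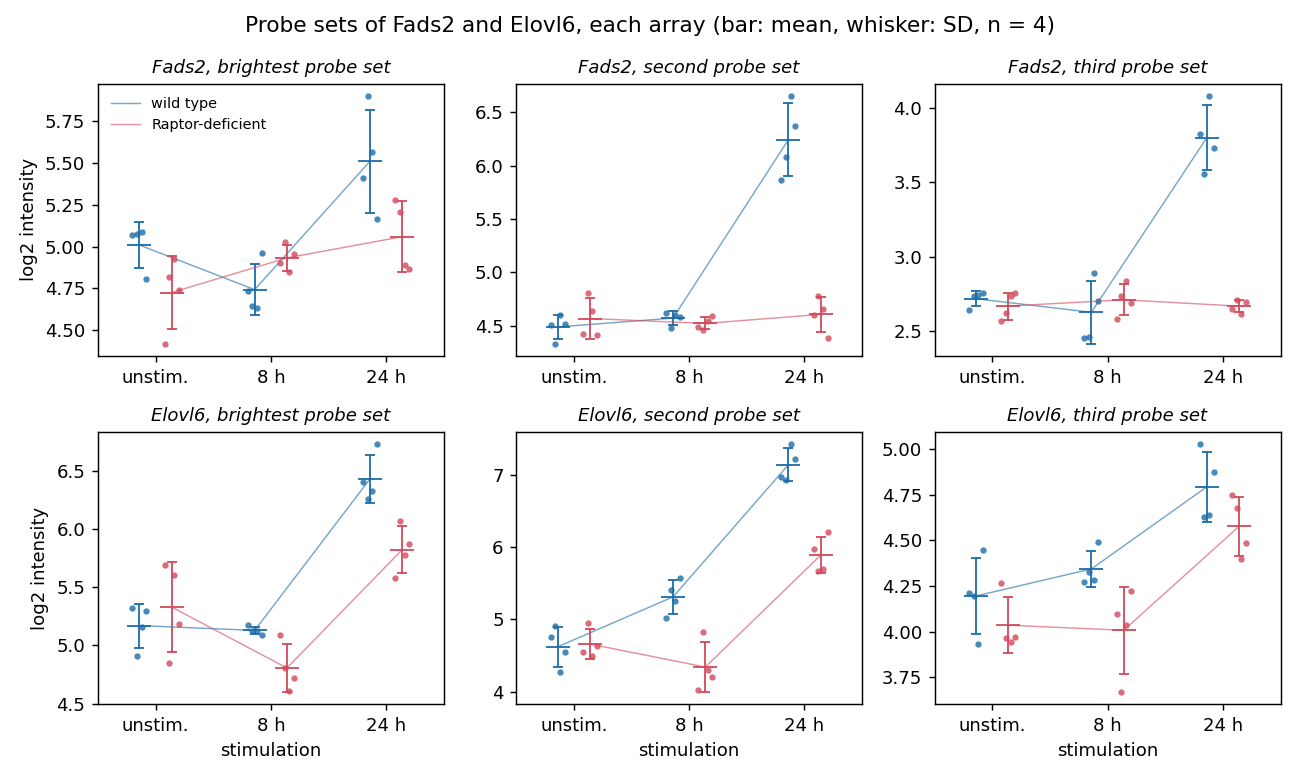
Log2 intensity of the 3 probe sets of Fads2 (top) and of Elovl6 (bottom), each panel with its own vertical axis that does not start at 0, in unstimulated cells and after 8 h and 24 h of stimulation. Points are single arrays of wild-type (blue) and Raptor-deficient cells (red), bars the means and whiskers the SD (n = 4). On the second Fads2 probe set wild-type cells rose by 1.67 from 8 h to 24 h while the Raptor-deficient difference was 0.08.

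Acsl3, which attaches CoA to fatty acids, was the early gene whose rise by 8 h was not called in Raptor-deficient cells. Wild-type cells had 6.09, 6.20, 6.02 and 5.86 unstimulated, 7.40, 7.35, 7.42 and 7.39 at 8 h, and 6.96, 7.37, 7.30 and 7.47 at 24 h. Raptor-deficient cells had 5.59, 6.23, 6.25 and 6.24, then 6.48, 6.50, 6.17 and 6.24, then 6.09, 5.98, 6.36 and 6.17. After stimulation the genotypes were well apart, and the stimulated Raptor-deficient values lay close to the unstimulated ones. The change by 8 h was 1.34 (SE 0.13, adjusted p = 2.19e-09) in wild-type cells and 0.27 (SE 0.13, adjusted p = 0.12, 95% interval 0.003 to 0.54) in those without Raptor, and the interaction was -1.07 (SE 0.18, adjusted p = 0.000744). The Raptor-deficient change depended on the unstimulated samples: it was 0.11 without replicate 1, the low one (adjusted p = 0.529), and 0.43 and called without replicates 2 and 3 (adjusted p = 0.033). The interaction was -1.23 and -0.91 in these fits (adjusted p = 2.38e-05 and 0.00521). Raptor-deficient Acsl3 was below wild-type by 1.04 on the log2 scale at 8 h (SE 0.13, adjusted p = 4.1e-06) and 2.18-fold lower at 24 h (adjusted p = 2.64e-07). The second probe set gave -1.08 at 8 h and -1.29 at 24 h, and on it Acsl3 also rose in Raptor-deficient cells by 8 h, by 0.46 (adjusted p = 0.0124 over all probe sets) beside 1.21 in wild-type cells. The third, dim one gave -0.17 at 8 h (adjusted p = 0.619) and -0.77 at 24 h (adjusted p = 0.00154). It showed no early rise in wild-type cells, with values from 4.29 to 4.57 unstimulated and from 4.31 to 4.55 at 8 h.

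Me1, the cytosolic malic enzyme, had group means between 3.80 and 4.04, which may be at the array's background, so that a missing call does not show a steady level. Its single values ran from 3.64 to 4.19, and no comparison called it. The difference between genotypes was 0.13 unstimulated (95% interval -0.05 to 0.31), 0.06 at 8 h (-0.12 to 0.24) and -0.04 at 24 h (-0.23 to 0.14). The second Me1 probe set, dimmer still at a mean of 2.93, gave -0.08 at 24 h (adjusted p = 0.594 over all probe sets).

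Other genes around the pathway were taken from lists written from general knowledge, with earlier results of these data known. Some of their members were lower without Raptor, where 8.77% of all genes were lower at 8 h and 13.1% at 24 h. Of 6 genes of acetyl-CoA and malonyl-CoA supply, 1 was lower at both times and 0 higher, namely Slc25a1, the mitochondrial citrate carrier (-0.38 at 8 h and -0.58 at 24 h, adjusted p = 0.0103 and 8.42e-05). The median of these 6 was -0.01 at 8 h and -0.04 at 24 h, beside 0.01 for all genes. Of 10 other genes of elongation, 5 were lower at 8 h (median -0.22) and 1 at 24 h (median -0.06, 1 in 10 being below the share of all genes), with 0 higher. Elovl1, an elongase of long saturated chains, was lower by 0.78 on the log2 scale at 8 h, and the dehydratase gene Hacd2 was lower by 0.56 on the same scale. Hacd1, its paralog, went from 2.82 to 4.31 and 6.28 in wild-type cells and from 3.05 to 3.52 and 4.71 in Raptor-deficient cells, a 24 h difference of -1.58 (adjusted p = 2.5e-08).

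Scd2, Scd3, Scd4 and Fads6 were on the list of other desaturases and their electron carriers but not measured here. Of the 5 that were measured, 2 were lower at 8 h (median -0.22) and 1 at 24 h (median -0.06). The lower ones were the cytochromes Cyb5a (-0.58 at 8 h) and Cyb5b (-0.74 at 8 h and -1.06 at 24 h, adjusted p = 0.00137 and 7.47e-06), of which Cyb5a is known to pass electrons to desaturases. Of 9 other acyl-CoA synthetases and transporters, 2 were lower at 8 h (Acsl5 by -0.75 and Acsl4 by -0.37) and 3 at 24 h (Acsl4 by -0.38, Slc27a3 by -0.37 and Acsl5 by -0.34), with list medians of 0.01 and -0.05. Of 4 other NADPH sources, Pgd, of the pentose phosphate pathway, was lower at both times (-0.81 and -0.46), and the list medians were -0.11 and 0.03. It went from 8.12 to 9.09 in wild-type cells by 8 h and from 8.19 to 8.28 in Raptor-deficient cells, an interaction of -0.87 (adjusted p = 0.00715).

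Of 11 measured regulators of SREBP, LXR and ChREBP, 4 were lower and 1 higher at 8 h, and 3 were lower and 2 higher at 24 h, with medians of -0.11 and 0.04. Srebf1 and Nr1h2 were on this list but not measured here, so their levels are not known. Insig1, which holds SREBP back and is itself an SREBP target, was at 7.13 ± 0.19, 8.97 ± 0.17 and 8.62 ± 0.13 in wild-type cells over the 3 times, and at 7.13 ± 0.31, 7.72 ± 0.12 and 8.08 ± 0.14 in Raptor-deficient cells (SD, n = 4). It rose by 8 h and its difference was larger at 8 h (-1.25, adjusted p = 1.25e-07) than at 24 h (-0.54, adjusted p = 0.00202), with an interaction of 0.71 between these times (adjusted p = 0.0149). Mid1ip1, which encodes a protein known to help acetyl-CoA carboxylase polymerise, went from 5.66 at 8 h to 7.05 at 24 h in wild-type and from 5.04 to 5.67 in Raptor-deficient cells. Its difference was -0.61 at 8 h and -1.37 at 24 h (adjusted p = 4.39e-10), with an interaction of -0.76 (adjusted p = 0.00283). Srebf2, which encodes an SREBP factor, differed by -0.54 at 8 h (adjusted p = 0.00107), and Mlx, the partner of ChREBP, by -0.51 at 24 h.

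Of 10 measured genes of glycerolipid synthesis, which use the fatty acids, 5 were lower and 0 higher at 8 h, and 5 were lower and 1 higher at 24 h, with medians of -0.31 and -0.28. Agpat5, an acyltransferase gene, was lower by 0.65 on the log2 scale at 8 h, and Lpcat3, which remodels phospholipids with polyunsaturated chains, by 0.59. At 24 h Lpcat3 differed by -0.83, Lpin2 by -0.67 and Agpat5 by -0.63.

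The genes whose 6 group means followed those of a member most closely were found by the root mean square difference after each gene was centred on its own mean. For Fasn they were Agpat5 (0.0822 on the log2 scale), Polr1e (0.0869) and Bid (0.0885), over a Fasn range of 1.96. For Scd1 they were Slc43a3 (0.141), Recql4 (0.151) and Cenps (0.176), over a range of 2.86. For Fads2, on its brightest probe set, they were Cln6 (0.0456), Qrsl1 (0.057) and Troap (0.0576), over a range of 0.78, and for Me1, whose means ranged over 0.23, they were Saa1, Pdzrn3 and Krt35.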

How the data were processed

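The deposited values are log2 intensities, 1 per probe set and array, in the authors' table of all 24 arrays. The submitters' processing notes name RMA and Partek 6.5, and the settings are not given in the sources used here. Amplified cDNA was made from 20 ng of total RNA, per the labels' protocols. Of 45141 probe sets, 28898 were paired with 1 gene symbol, 551 with several and 15692 with none, and those with several or none were not used for gene names.

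The brightest probe set by mean stood for each of the 17097 genes. A fit of the 6 group means (limma 3.58.1, R 4.3.3, lmFit and eBayes) gave 12 two-sided comparisons with p-values adjusted over all genes. The 10 members and all lists were chosen with earlier results of these data known. Named beside the members were, per list, up to 3 called genes with the smallest p at 8 h and at 24 h, Rptor, and the 3 genes closest to Fasn, Scd1, Fads2 and Me1 in their group means. Marker genes and other values were named after they were seen.

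On simulated data for the 8 h comparison with 17097 genes, 67 genes were shifted 1.5-fold, of which 77.6% were called. The shifts of 2-fold (67 genes) and 4-fold (66 genes) were called at 100%, and 9 unshifted genes were called. The simulated noise of a gene was independent and of equal spread on all arrays. Far fewer genes were shifted than were called at 8 h in the measured data, so these rates may not hold there. The alternatives were other scalings, array weights, an intensity trend, a filter on dim genes, the mean of all probe sets, fits of only the groups compared, the replicate block and samples left out. Levels of different genes were not compared.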

Additional observations from a re-analysis of the deposited data

Results flagged for a closer look

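Stimulation changed several of the genes by different amounts in the 2 genotypes, by the interaction term of limma, which was called in 10 of 30 tests of the 10 genes, all negative, where 4.36% of all genes were called negative up to 8 h, 3.2% from 8 h to 24 h and 8.01% over the whole course. From unstimulated to 8 h the Raptor-deficient change minus the wild-type change was -0.81 for Fasn and -1.07 for Acsl3. From 8 h to 24 h it was -1.95 for Scd1, -0.50 for Elovl5 and -0.64 for Fads2. Over the whole course it was -0.46 for Fasn, -1.56 for Scd1, -0.77 for Elovl6, -0.97 for Fads1 and -1.16 for Acsl3. All of these values are from the brightest probe sets, and the probe sets of Fads1 and of Fads2 differed in their courses. The whole-course value is the sum of those of the 2 intervals, so the 30 tests are not separate. Fasn, Scd1 and Acsl3 were each called both in 1 interval and over the whole course. The call was lost without any 1 of 17 samples for Elovl5 and without any 1 of 16 for Fads2 from 8 h to 24 h and for Fasn over the whole course.

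In 2 of 60 groups of 4 arrays, 1 array lay far from the other 3, where chance alone sets about 1 group in 20 apart. Fads2 in unstimulated wild-type cells was lowest in replicate 4, at 4.80, with the others between 5.07 and 5.09. Acsl3 in unstimulated Raptor-deficient cells was lowest in replicate 1, at 5.59, with the others between 6.23 and 6.25. The residual SD of that array over all genes was 0.28.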

How the results depend on the processing

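Of 120 values of the 10 genes, 56 were called; 14 of these lost the call under at least 1 of 35 alternatives, 17 others gained one, and 1 reversed. The reversed value was Elovl6 from unstimulated to 8 h in wild-type cells, 0.27 with the mean of all probe sets (adjusted p = 0.0111). The genes called changed in number by over 1.5 times in 4 cases outside single samples left out. The interaction over the whole course had 3 without replicate 1 of both 24 h groups, and that up to 8 h had 5 with the mean of all probe sets. Raptor-deficient cells at 8 h against unstimulated had 3 with only the groups compared, and unstimulated genotypes had 1 without replicates 2 and 3 of the Raptor-deficient group. Leaving out each sample gave 0 to 1 called between genotypes unstimulated, 4 to 5 at 8 h and 6 to 9 at 24 h. For wild-type cells it gave 4 to 4 up to 8 h, 4 to 6 from 8 h to 24 h and 8 to 9 over the whole course. For Raptor-deficient cells it gave 4 to 6, 3 to 5 and 5 to 7, and for the interactions 2 to 4, 1 to 3 and 4 to 5. Of 36 pairs of same-numbered samples, 8 correlated above 0.1 (range -0.0689 to 0.251), so the numbers were not taken as pairs. At 24 h the 4 between genotypes were at 0.251, 0.0641, 0.171 and 0.105, and 4 of 4 samples correlated best with their own number, as did 2 of 4 unstimulated and 2 of 4 at 8 h, a hint from the data and not the design. Replicate 1 of both genotypes at 24 h also shares the liver RNA. With the replicate block, 4 of the 10 were called at 8 h and 9 at 24 h, and no call of these genes was lost. Over all genes, 332 were called between unstimulated genotypes, 179 with array weights, 52 with only the groups compared and 718 without Raptor-deficient replicates 2 and 3 or 3 alone, and 196 to 216 without wild-type replicate 1, 2 or 3. The interaction up to 8 h had 1076, 548 with only the groups compared and 1671 without those replicates (1653 without replicate 3 alone), and that from 8 h to 24 h had 774, and 1294 with array weights. The number of arrays limits all of these values.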

Other observations

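Fatty acid oxidation, the route that breaks fatty acids down, was also measured. Of 16 genes of its list, 4 were lower and 1 higher in Raptor-deficient cells at 8 h, and 2 were lower and 1 higher at 24 h (limma, adjusted p under 0.05). Of all genes, 8.77% were lower and 4.14% higher at 8 h and 13.1% and 8.35% at 24 h, so the counts at 24 h were near that background. At 8 h Acadvl, a dehydrogenase of very long chains, differed by -0.52, Eci1, an isomerase for unsaturated chains, by -0.66, and Etfa, which passes on electrons from the dehydrogenases, by -0.46. At 24 h Eci2, another isomerase, differed by -0.70, Etfa by -0.34 and Ech1 by 0.36.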
